A study of Mus musculus with 16 samples.

Results

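The Wnt and β-catenin pathway was followed through 45 genes, taken by symbol for their known roles: 4 ligands, 5 secreted antagonists, 10 frizzled receptors, 6 co-receptors and regulators of receptor turnover, 5 dishevelled genes and their inhibitors, 7 genes of the destruction complex with β-catenin, and 8 transcription factors and cofactors. All 45 were among the 24060 genes of the deposited tables. Of these, 44 had a mean above 1 CPM (the reads on a gene per 1000000 reads on all genes of a library), as did 13341 genes in all. The remaining gene, Wif1, a secreted Wnt-binding inhibitor, had 0.61 ± 0.144 CPM in naïve INPUT (SD, n = 4) and no more than 1 read in any IP library.

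Wnt ligands bind frizzled receptors together with Lrp5 or Lrp6, and dishevelled proteins carry the signal inside the cell. Without ligand, the scaffolds Axin1, Axin2 and Apc hold β-catenin for phosphorylation by casein kinase 1 and glycogen synthase kinase 3, after which it is degraded. With ligand, β-catenin accumulates and works with the TCF/LEF factors on target genes, of which Axin2 is a widely used readout and a negative feedback gene of the pathway. In the cortex the pathway is best known for guiding neural progenitors and for the Wnt7a and Wnt7b that help to form and maintain the blood-brain barrier.

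The libraries came from the somatosensory cortex of Aldh1l1CreERT2-RiboTag mice on C57BL/6J, aged 3 months, which all received tamoxifen at 2 months. The RiboTag allele puts an HA tag on a ribosomal protein in cells with Cre, and since Cre was driven by the Aldh1l1 promoter the tag marks cells in which that promoter is active. IP is the ribosome-bound RNA pulled down with the tag, and INPUT is the total RNA of the cleared lysate. Naïve mice stayed in the home cage, and stressed mice swam in a bucket of water for 20 min and then rested for 90 min in the home cage. There were 4 libraries each of naïve IP (replicates 2, 8, 11 and 13), stress IP (4, 5, 6 and 15), naïve INPUT (3, 7, 14 and 16) and stress INPUT (1, 9, 10 and 12), where the replicate numbers are library numbers. The study took INPUT and IP from the lysate of each mouse, with 4 mice per group. The sources do not say which IP and INPUT libraries share a mouse, and all libraries were treated as independent. The p-values of IP over INPUT and of the interaction between stress and fraction therefore ignore this pairing.

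Between 16392876 and 25814364 reads per library fell on genes, so that 3 reads made at most 0.183 CPM. The summed level of 8 astrocyte markers was 78824 to 90527 CPM in IP and 4503 to 5418 CPM in INPUT, and that of 8 neuron markers was 370 to 586 CPM against 10295 to 12014 CPM. The sums for oligodendrocytes, their precursors, microglia and endothelial cells were also lower in IP. Cnp, of the oligodendrocyte list, went the other way, at a mean of 148 CPM in naïve IP and 115 CPM in naïve INPUT. The sum of the 4 mural markers was 98.5 to 155 CPM in IP and 43.4 to 55.8 CPM in INPUT, but it rested on Pdgfrb, at a mean of 132 CPM in naïve IP and 25.4 CPM in naïve INPUT. Rgs5 and Kcnj8 were lower in IP (log2 differences −1.60 and −3.53), and Acta2 was under 1 CPM there. The summed fibroblast and meningeal markers overlapped, at 43.3 to 82.7 CPM in IP and 33.2 to 54.8 CPM in INPUT. That sum rested on Col1a2, at a mean of 45.5 CPM in naïve IP and 18.7 CPM in naïve INPUT. Dcn, Col1a1 and Lum were lower in naïve IP (log2 differences −1.289, −0.579 and −1.625). Every group held 2 libraries with Xist above 100 CPM and 2 with Xist under 1 CPM, so sex as read from Xist was balanced over the groups. Naïve IP replicate 11 lay far from the other naïve IP libraries for some genes, among them Fzd2 and Wnt7a, and leaving it out changed more calls of the pathway genes for stress in IP than leaving out any other IP library. It was the highest of its group for 17 of the 44 genes and the lowest for 12. Over the 44 genes it was not the most deviant library. Its median absolute deviation was 0.101 on the log2 scale, below that of stress IP replicate 15 (0.147), naïve INPUT replicate 14 (0.113) and stress INPUT replicate 9 (0.104). In these bulk samples, fewer cells of a type and less RNA per cell cannot be told apart. In IP, less RNA per cell and a lower share of it on ribosomes cannot be told apart either.

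Levels between genes are compared here only as CPM per kb of exon (exon length from GENCODE M21), and the levels given next are those in naïve IP. Ctnnb1, which encodes β-catenin, stood at 101 ± 4.01 CPM per kb (SD, n = 4), and the scaffold Apc at 45.1 ± 2.65. Dkk3, a divergent member of the Dickkopf family of secreted antagonists, was the highest of all 45 genes at 128 ± 16.4 CPM per kb, with 421, 382, 509 and 412 CPM in the 4 libraries. Among receptors the highest levels were those of Lgr4, a receptor for R-spondins, at 29.9 ± 2.93 CPM per kb and of Fzd2 at 28.6 ± 9.23, which did not differ beyond their spread. The ligands Wnt7b and Wnt7a were at 23.0 ± 0.959 and 22.9 ± 5.82 CPM per kb, whereas Wnt4 and Wnt5a, ligands better known for signalling without β-catenin, were at 0.69 ± 0.0485 and 0.579 ± 0.112. Transcription factors were low per kb. Tcf7l2 was at 2.98 ± 0.365, Tcf7l1 at 1.93 ± 0.442, Lef1 at 1.84 ± 0.0818 and Tcf7 at 0.722 ± 0.089 CPM per kb, so that Tcf7l1 and Lef1 overlapped in their spread. Ctnnbip1, which keeps β-catenin from binding TCF factors, was the highest of its role at 16.2 ± 0.973 CPM per kb.

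**Figure D1:**
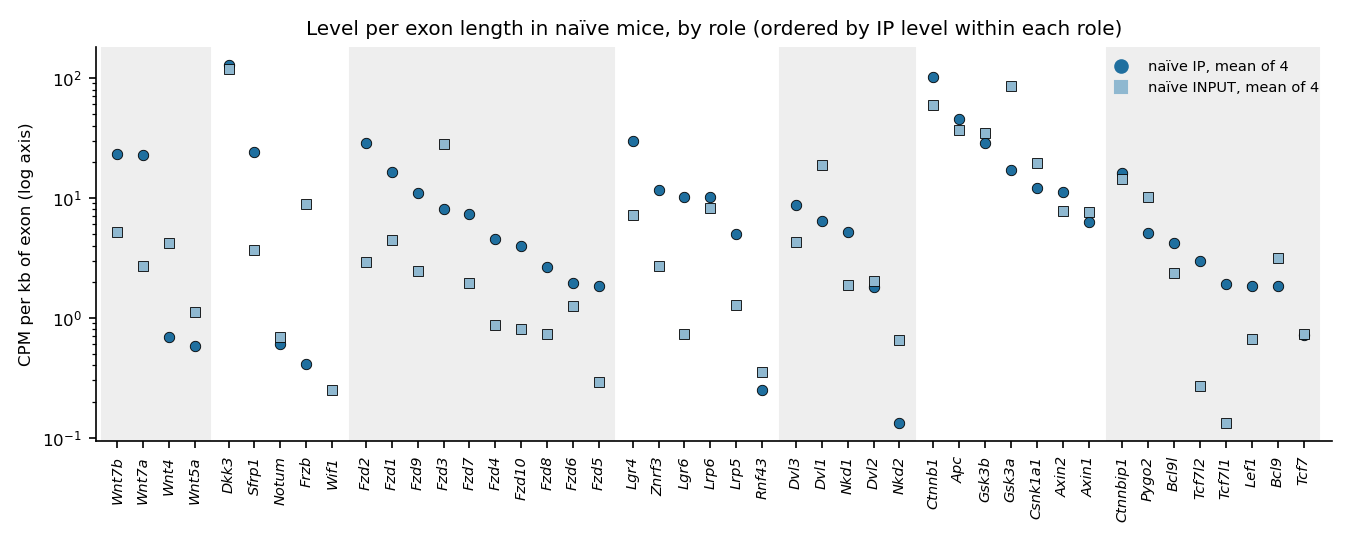
Levels of the 45 pathway genes in naïve IP and naïve INPUT, as CPM per kb of exon on a log axis, grouped by role, where circles (IP) and squares (INPUT) are means of 4 libraries. In naïve IP, Dkk3 (128) and Ctnnb1 (101) stand highest, and Wif1, at 0.00461 CPM per kb in naïve IP, falls below the plotted range.

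The first comparison, IP over INPUT in naïve mice, asks which pathway components are enriched in RNA on astrocyte ribosomes. Of the frizzled receptors 9 of 10 were higher in IP. So were the R-spondin receptors Lgr4 and Lgr6, Wnt7a, Wnt7b, Sfrp1 and the TCF factors Tcf7l1 and Tcf7l2. Most of these log2 differences were near 2 or above. Frzb, Wnt4, Nkd2, Gsk3a, Fzd3 and Dvl1 were lower in IP. Of 44 genes tested with limma on log2(CPM + 0.1), 27 were higher and 13 lower at an adjusted p under 0.05, while over all 13339 genes 23.7% were higher and 64.0% lower. The median log2 difference of the 44 genes was 0.70 against −0.64 for all genes, and 34 of them lay above the median of all genes. CPM are relative to the library's total. With a rescaling by the median ratio, or with quantile normalization, the median of all genes moved to near 0 and the split of the 44 became 32 higher and 7 lower, or 33 and 8. Under both, the sign of the difference changed for Notum, Rnf43, Dvl2, Axin1 and Gsk3b.

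Wnt7a and Wnt7b, the ligands tied to blood-brain barrier formation, were higher in naïve IP by log2 differences of 3.04 (95% CI 2.68 to 3.40, limma adjusted p = 7e-10) and 2.15 (95% CI 2.03 to 2.28, limma adjusted p = 4e-13). Wnt7b had 114, 109, 109 and 119 CPM in naïve IP against 26.1, 25.8, 24.6 and 24.4 CPM in naïve INPUT. The libraries did not overlap, and the levels within each kind lay close together. Wnt4 was among the lowest of the 44, at 2.69, 3.05, 3.09 and 2.75 CPM in naïve IP against 15.8, 16.6, 20.8 and 17.3 CPM in naïve INPUT, a log2 difference of −2.56 (95% CI −2.82 to −2.30, limma adjusted p = 1.2e-10). Wnt5a was lower by library totals (log2 difference −0.95, limma adjusted p = 3.9e-05) but not past the threshold after either rescaling (−0.32 and −0.14, adjusted p = 0.069 and 0.38). Among the secreted antagonists, which bind Wnts or their receptors outside the cell, Sfrp1 was higher in IP (log2 difference 2.61, 95% CI 1.98 to 3.25, limma adjusted p = 1.5e-06) and Frzb lower. Frzb had 1.66, 1.3, 1.53 and 0.852 CPM in naïve IP against 30.0, 27.3, 26.3 and 30.3 CPM in naïve INPUT, which was the lowest log2 difference of the 44 genes (−4.35, 95% CI −4.73 to −3.97, limma adjusted p = 2.2e-11). Dkk3 had 391, 373, 440 and 388 CPM in naïve INPUT, close to its IP values, and its difference of 0.11 did not pass (95% CI −0.07 to 0.29, limma adjusted p = 0.23), although it did after both rescalings (0.75 and 0.34). Notum, an esterase that inactivates Wnts, gave −0.16 (limma adjusted p = 0.59), a sign that turned under both rescalings.

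Of the 10 frizzleds, the receptors that bind Wnts, 9 were higher in IP and Fzd3 was lower, and this held by library totals and under both rescalings. The 9 differences ran from 0.62 (Fzd6) to 3.26 (Fzd2). Fzd2 had 82.1, 93.7, 155 and 88.4 CPM in naïve IP against 9.09, 9.54, 14.9 and 9.41 CPM in naïve INPUT. The libraries of either kind were alike except for replicate 11 in IP and replicate 14 in INPUT, which were high, and no IP library came near an INPUT library. Fzd3, which acts largely in planar polarity and axon guidance, was at 104 ± 6.09 CPM in naïve IP against 357 ± 12.7 CPM in naïve INPUT (SD, n = 4), a log2 difference of −1.78 (95% CI −1.90 to −1.66, limma adjusted p = 1.7e-12).

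Of the 6 co-receptors and turnover genes, 5 were higher in IP. Lgr6, another R-spondin receptor, had the highest log2 difference of the 44 genes at 3.78 (95% CI 3.49 to 4.08, limma adjusted p = 7.6e-12), from 76.4, 58.1, 68.5 and 76.4 CPM in naïve IP against 4.80, 6.65, 4.34 and 4.32 CPM in naïve INPUT. Lgr4 had 193, 167, 157 and 188 CPM in naïve IP against 43.5, 42.2, 40.7 and 42.0 CPM in naïve INPUT, and its log2 difference was 2.06 (limma adjusted p = 3.7e-12). The co-receptors Lrp5 and Lrp6 were unequal, with log2 differences of 1.97 (95% CI 1.81 to 2.14) and 0.32 (95% CI 0.21 to 0.43). The ubiquitin ligases that clear frizzleds from the membrane were unequal too. Znrf3 was at 2.09 (95% CI 1.93 to 2.25), whereas Rnf43, with under 3 CPM in every library, was at −0.49 (95% CI −0.87 to −0.11, limma adjusted p = 0.019), became 0.12 and 0.66 under the rescalings, and lost its call without naïve IP replicate 13 (adjusted p = 0.06) or naïve INPUT replicate 7 (adjusted p = 0.051).

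The dishevelled genes, whose products carry the signal from the receptor, did not share a direction. Dvl3 was higher in IP, with 49.5, 51.4, 60.6 and 60.0 CPM in naïve IP against 25.2, 29.8, 24.1 and 31.3 CPM in naïve INPUT (log2 difference 1.00, 95% CI 0.79 to 1.22, limma adjusted p = 3.6e-07), and Dvl1 was lower (−1.54, 95% CI −1.69 to −1.38). Dvl2 was not past the threshold (−0.17, limma adjusted p = 0.26), and both rescalings made it higher in IP (0.46 and 0.51). Its exons overlap Acadvl on the other strand over 18.3% of their length. The dishevelled inhibitors Nkd1 and Nkd2 went opposite ways under every scaling. Nkd1 was at 1.45 (95% CI 1.22 to 1.68) and Nkd2 at −2.33 (95% CI −3.19 to −1.47, limma adjusted p = 9.1e-05), the latter from 0.294, 0.851, 1.17 and 0.232 CPM in naïve IP against 2.26, 2.83, 4.24 and 3.31 CPM in naïve INPUT. In naïve IP Nkd2 rested on 6 to 30 reads per library.

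In the destruction complex, Ctnnb1, Axin2 and Apc were higher in naïve IP (0.78, 0.54 and 0.30) and Gsk3a was lower (−2.32) by library totals and under both rescalings. Ctnnb1 had 537, 520, 547 and 499 CPM in naïve IP against 302, 289, 335 and 301 CPM in naïve INPUT, without overlap (95% CI 0.66 to 0.90, limma adjusted p = 1.4e-08). Gsk3a, one of the kinases that mark β-catenin, was at 49.7 ± 0.975 CPM in naïve IP against 248 ± 18.3 CPM in naïve INPUT (SD, n = 4). Its paralogue Gsk3b (−0.28) and the scaffold Axin1 (−0.28) were lower by library totals but turned to 0.36 and 0.05, and to 0.36 and 0.31, under the median ratio and quantile rescalings. Csnk1a1, the casein kinase that primes β-catenin, was at −0.69 (limma adjusted p = 8.5e-09) and at −0.05 (adjusted p = 0.33) after rescaling by the median ratio. Without regard to strand, 28.3% of the exon length of Gsk3a is shared with 9130221H12Rik and 14.6% of that of Ctnnb1 with Ulk4.

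Of the TCF/LEF factors, which bring β-catenin to DNA, Tcf7l1, Tcf7l2 and Lef1 were higher in IP. Tcf7l1 had 5.73, 6.72, 8.07 and 9.72 CPM in naïve IP against 0.169, 0.53, 0.549 and 0.814 CPM in naïve INPUT, where it rested on 3 to 16 reads per library (log2 difference 3.74, 95% CI 3.03 to 4.44, limma adjusted p = 1e-07). Tcf7l2 had 21.4, 27.2, 27.7 and 28.4 CPM against 1.75, 2.88, 1.75 and 3.00 CPM, a log2 difference of 3.46 (95% CI 3.07 to 3.86, limma adjusted p = 4.6e-10). For both, the lowest IP library lay far above the highest INPUT library. Tcf7 stood at 1.9 CPM in IP and in INPUT, with a difference of 0.05 (95% CI −0.49 to 0.60, limma adjusted p = 0.84), and was higher in IP after the rescalings (0.66 and 1.22). Among the cofactors, Bcl9l was higher (0.81), while its paralogue Bcl9 (−0.77) and Pygo2 (−1.01) were lower, and Bcl9 did not pass after either rescaling (−0.13 and −0.15). Ctnnbip1 had 41.8, 44.3, 46.9 and 47.8 CPM in naïve IP against 40.9, 38.4, 40.4 and 40.8 CPM in naïve INPUT. Its difference of 0.17 (limma adjusted p = 0.025) lost its call without naïve IP replicate 11 (adjusted p = 0.054), naïve IP replicate 13 (adjusted p = 0.075) or naïve INPUT replicate 7 (adjusted p = 0.063).

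**Figure D2:**
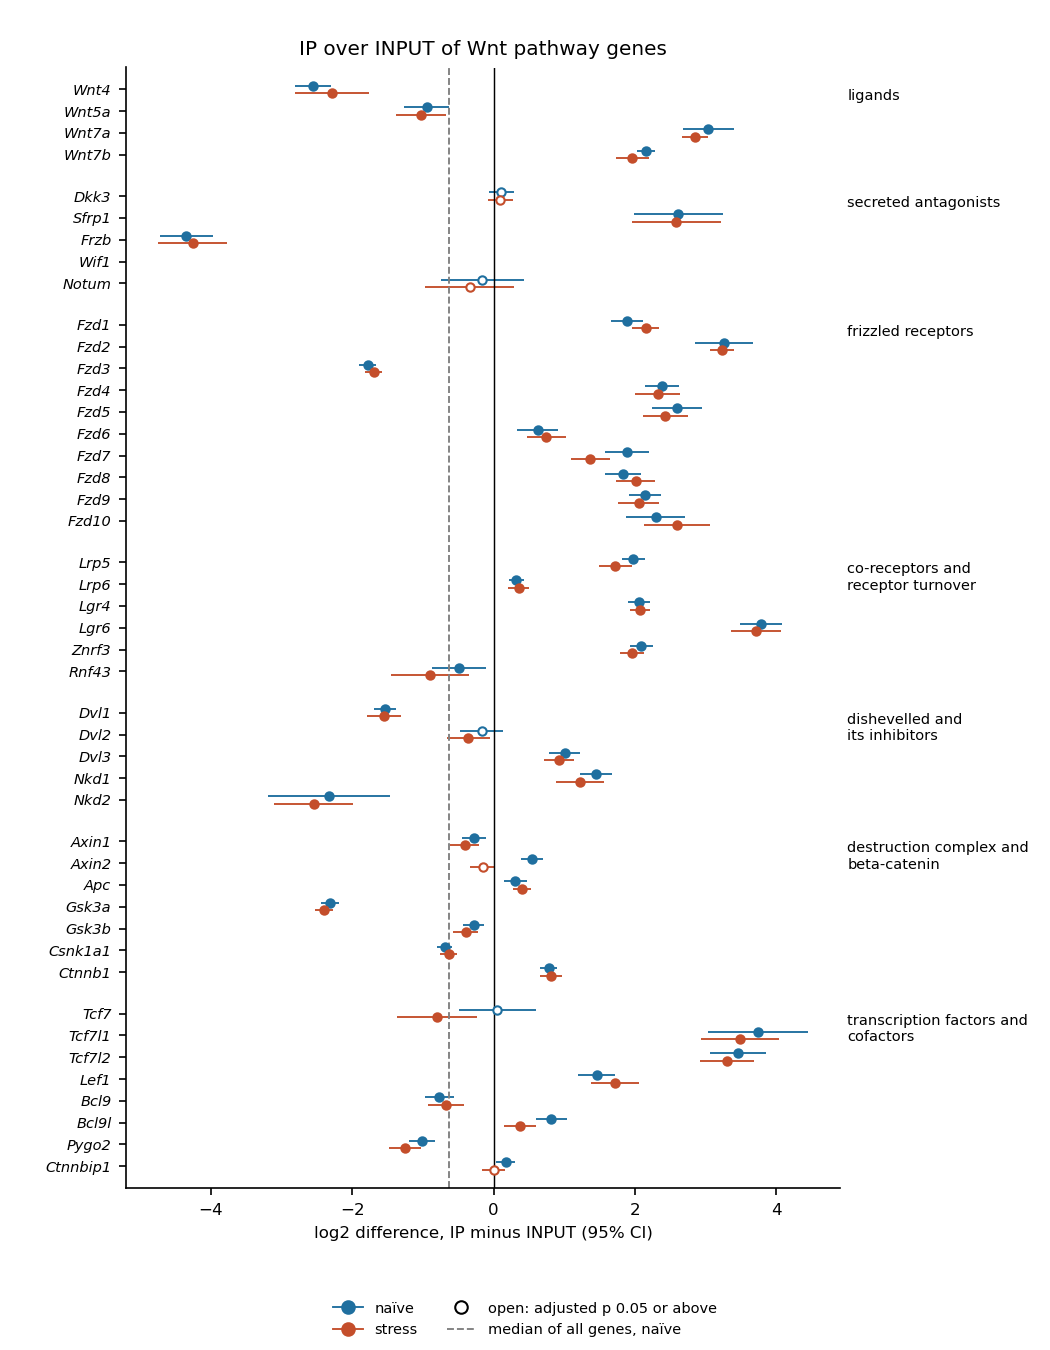
Log2 difference between IP and INPUT for each pathway gene tested, with its 95% confidence interval, in naïve and in stressed mice, grouped by role. Open symbols did not pass an adjusted p of 0.05, and the dashed line is the median of all genes in naïve mice (−0.64). Of the frizzleds 9 of 10 frizzleds lie to the right of 0, and by library totals Axin2 is at 0.54 in naïve and at −0.15 in stressed mice (0.47 and 0.42 under the rescalings).

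In stressed mice the same comparison gave 25 genes higher and 15 lower of 44 tested, beside 23.6% and 62.5% of all 13333 genes. The median log2 difference was 0.57 against −0.63 for all genes. Axin2 was past the threshold in naïve mice (0.54, 95% CI 0.39 to 0.70, limma adjusted p = 7.9e-06) but not in stressed mice (−0.15, 95% CI −0.33 to 0.02, limma adjusted p = 0.096). This contrast depended on the scaling. Under both rescalings Axin2 was higher in IP in stressed mice as well (0.47 and 0.42, each with an adjusted p of 0.00027). By library totals its value there became −0.20 with an adjusted p of 0.032 without stress IP replicate 15. Under the rescalings 30 of the 44 genes were higher and 8 lower in either case. The sign then changed for Notum, Dvl2, Axin1, Axin2 and Ctnnbip1 under both, for Gsk3b under the median ratio, and for Rnf43 and Tcf7 under quantile normalization.

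Axin2, the feedback scaffold of the destruction complex, fell in IP after the swim and did not move in INPUT beyond its spread. The gene lies at chr11:108920349-108950783 on the plus strand of GRCm38. In naïve IP the 4 libraries had 63.4, 60.5, 60.7 and 61.9 CPM, from 1296 to 1597 reads. In stress IP they had 33.7, 35.8, 38.3 and 41.3 CPM, from 727 to 1028 reads. All 4 stress libraries lay below all naïve libraries, with a wide gap between them, and the naïve values were within a few CPM of each other. The mean went from 61.6 ± 1.34 to 37.3 ± 3.27 CPM (SD, n = 4), 39.5% lower, a log2 fold change of −0.73 (95% CI −0.88 to −0.57, limma adjusted p = 0.0015). The exact permutation test over the 70 labelings gave p = 0.0286 (two-sided), the smallest it can give. Any gene whose groups do not overlap gets this value, as 5.0% of the 12501 genes did, so it adds nothing to the separation. By p-value Axin2 ranked 3 among 12501 genes tested. In INPUT the values were 40.0, 43.1, 38.4 and 48.0 CPM in naïve and 45.3, 39.6, 42.0 and 39.0 CPM in stressed mice, which overlapped (log2 fold change −0.03, 95% CI −0.20 to 0.14, limma adjusted p = 1.0). The antisense gene Gm11670 covers 3.8% of its exon length.

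**Figure D3:**
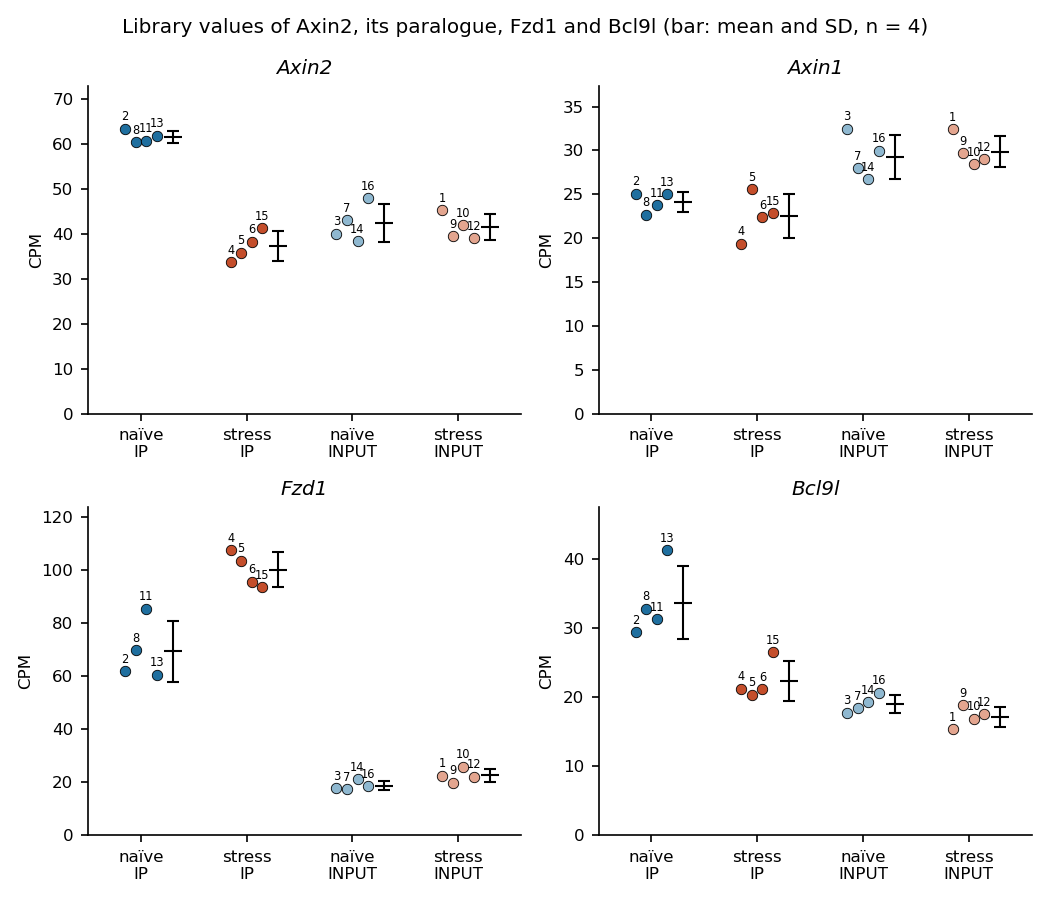
CPM of Axin2, Axin1, Fzd1 and Bcl9l in each of the 16 libraries, by group, with the mean and SD of each group (n = 4). Axin2 is at 60.5 to 63.4 CPM in naïve IP and at 33.7 to 41.3 CPM in stress IP, while its INPUT values overlap.

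The difference between the stress effects in IP and INPUT was −0.70 for Axin2 (95% CI −0.93 to −0.47, limma adjusted p = 0.019, interaction term over 16 libraries). It was the only one of 44 pathway genes to pass, beside 0.0225% of 13341 genes, that is 3 genes. This call was less firm than that in IP. It was lost in 9 of the 16 fits that left out a library (naïve IP 2, 8 or 13, stress IP 4 or 5, naïve INPUT 3 or 7, stress INPUT 1 or 10), with values from −0.71 to −0.65 and adjusted p of 0.05 to 0.076, and with a variance without trend (adjusted p = 0.086). The fall in IP passed in all 11 alternatives (−0.74 to −0.71, adjusted p from 9.5e-05 to 0.023) and without any single library (−0.78 to −0.68, adjusted p from 0.00039 to 0.016). At an unadjusted p under 0.05, the interaction held 4 of 44 genes, beside 4.71% of all genes, namely Axin2, Bcl9l (−0.44, limma adjusted p = 0.86), Fzd7 (−0.52, limma adjusted p = 0.98) and Tcf7 (−0.86, limma adjusted p = 1.0).

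Axin1, the constitutive paralogue, had 25.1, 22.7, 23.7 and 25 CPM in naïve IP against 19.4, 25.5, 22.4 and 22.8 CPM in stress IP. These values overlapped, and the log2 fold change was −0.10 (95% CI −0.30 to 0.09, limma adjusted p = 0.82). In INPUT it had 32.5, 28.0, 26.7 and 30.0 CPM in naïve and 32.4, 29.7, 28.4 and 29.0 CPM in stressed mice (0.03, limma adjusted p = 1.0). The ratio of Axin2 to Axin1, in CPM, does not depend on the scaling of a library. It was 2.56 ± 0.0829 in naïve IP and 1.67 ± 0.18 in stress IP, and 1.45 ± 0.162 and 1.39 ± 0.0669 in naïve and stress INPUT (SD, n = 4). The stress IP ratio was nearer to that of INPUT than the naïve IP ratio was. Only stress IP replicate 5 (1.40) fell within the INPUT range. Replicates 4, 6 and 15 (1.74, 1.71 and 1.81) lay above the highest INPUT library (1.60).

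The sequences before the start sites of Axin2 and Fzd1, the members called in IP, and of Gsk3a are shown here because Axin2 is a direct target of the TCF/LEF factors. The letters searched were CTTTGAT and CTTTGAA on either strand (ATCAAAG and TTCAAAG), a core that TCF/LEF factors bind. RefSeq windows of 300 bases were at hand for 29 of the 45 genes (39 windows, build GRCm38.p6). Each stretch below is the 250 bases before a start, 5′ to 3′ on the gene's strand, with a match in capitals: Axin2 at chr11:108920099-108920348 (plus strand), Fzd1 at chr5:4758217-4758466 (minus strand) and Gsk3a at chr7:25237852-25238101 (minus strand).
Axin2: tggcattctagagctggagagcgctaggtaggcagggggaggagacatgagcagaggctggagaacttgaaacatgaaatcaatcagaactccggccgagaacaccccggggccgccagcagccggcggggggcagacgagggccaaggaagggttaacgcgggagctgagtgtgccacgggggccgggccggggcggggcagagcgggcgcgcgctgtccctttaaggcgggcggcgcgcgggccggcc
Fzd1: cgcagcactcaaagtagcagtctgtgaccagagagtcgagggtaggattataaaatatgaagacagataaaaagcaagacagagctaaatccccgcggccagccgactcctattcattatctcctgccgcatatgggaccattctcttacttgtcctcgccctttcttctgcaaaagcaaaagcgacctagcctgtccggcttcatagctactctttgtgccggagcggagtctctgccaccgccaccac
Gsk3a: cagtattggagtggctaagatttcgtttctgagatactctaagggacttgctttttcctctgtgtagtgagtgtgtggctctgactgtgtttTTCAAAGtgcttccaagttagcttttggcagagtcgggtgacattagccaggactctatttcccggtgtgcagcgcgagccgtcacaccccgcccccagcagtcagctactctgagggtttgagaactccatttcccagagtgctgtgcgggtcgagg
Of the 39 windows 1 held a match, that of Gsk3a, beginning 158 bases before the start. Of all 32851 RefSeq windows 8.65% did. The pathway windows were richer in G and C (median 67.3%) than all windows (52.7%). A match describes the letters of the window and nothing of binding, and its absence says only that these letters are not in the window.

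Across the pathway the stress comparison in IP asks which components changed within 90 min of rest after the swim. Axin2 fell and Fzd1 rose, and the other 41 genes tested did not pass. That is 2 of 43 genes, beside 0.44% of the 12501 genes tested. At an unadjusted p under 0.05 there were 12, of which 10 were lower, beside 8.27% of all genes. In 6 genes the naïve and stress libraries did not overlap, beside 5.0% of all genes, with Fzd1 and Csnk1a1 higher and Axin2, Bcl9l, Lgr6 and Fzd7 lower. Of the 43 log2 fold changes 33 were below 0, and their median was −0.13 against −0.0036 for all genes. Apart from Axin2, the median was −0.12 and the range −0.70 to 0.54, and 31 of the 42 lay within 0.25 of 0. Without naïve IP replicate 11, 5 of 43 genes passed, beside 0.976% of 12495 genes: Fzd1 and Fzd2 (0.42, limma adjusted p = 0.017) were higher, and Axin2, Wnt7a (−0.54, limma adjusted p = 0.0057) and Bcl9l (−0.62, limma adjusted p = 0.047) lower. Without it the log2 fold changes of Sfrp1 and Dvl1 changed sign (to 0.06 and −0.03), and neither passed. With any other library left out, the count was 1 to 3.

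**Figure D4:**
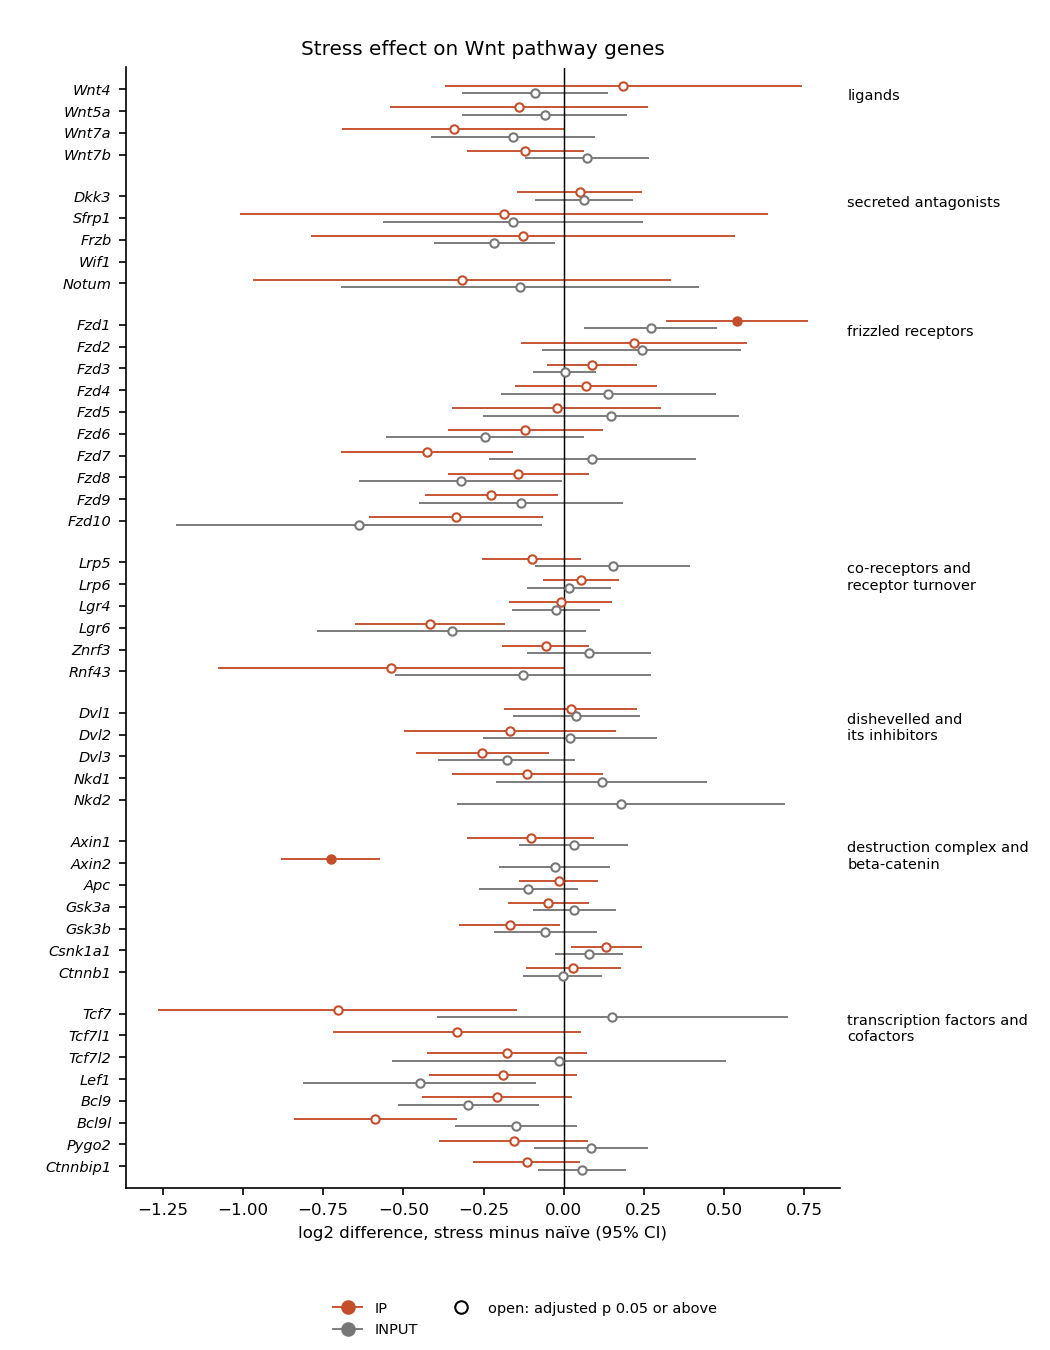
Log2 fold change of each pathway gene tested, stress against naïve, in IP and in INPUT, with its 95% confidence interval, grouped by role. Filled symbols passed an adjusted p of 0.05 in limma. In IP, Axin2 (−0.73) and Fzd1 (0.54) passed, and none of the 43 genes tested in INPUT did.

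None of the 4 ligands passed. Wnt7a had 75.2, 78.2, 46.8 and 90.5 CPM in naïve IP against 51.8, 58, 54.2 and 59.1 CPM in stress IP. Replicate 11 was the only naïve library within or below the stress values, and with it the log2 fold change was −0.34 (95% CI −0.69 to 0.01, limma adjusted p = 0.62). Wnt7b had 89.5, 103, 102 and 122 CPM in stress IP, around its naïve values (−0.12, limma adjusted p = 0.77), and Wnt4 and Wnt5a gave 0.19 and −0.14. No antagonist passed either. Dkk3 had 419, 409, 457 and 491 CPM in stress IP (0.05, limma adjusted p = 0.93, and 0.13 without replicate 11). Sfrp1 varied more between libraries than between groups. It had 63.2, 143, 158 and 58.6 CPM in naïve IP against 138, 60.2, 50.6 and 118 CPM in stress IP, so that 2 naïve and 2 stress libraries were above 100 CPM and the other 4 under it. Each of those sets held 2 libraries with high Xist, so the split did not follow Xist. The log2 fold change of Sfrp1 had a wide interval (−0.19, 95% CI −1.01 to 0.64), and its sign turned without replicate 11 (0.06, 95% CI −0.75 to 0.86).

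**Figure D5:**
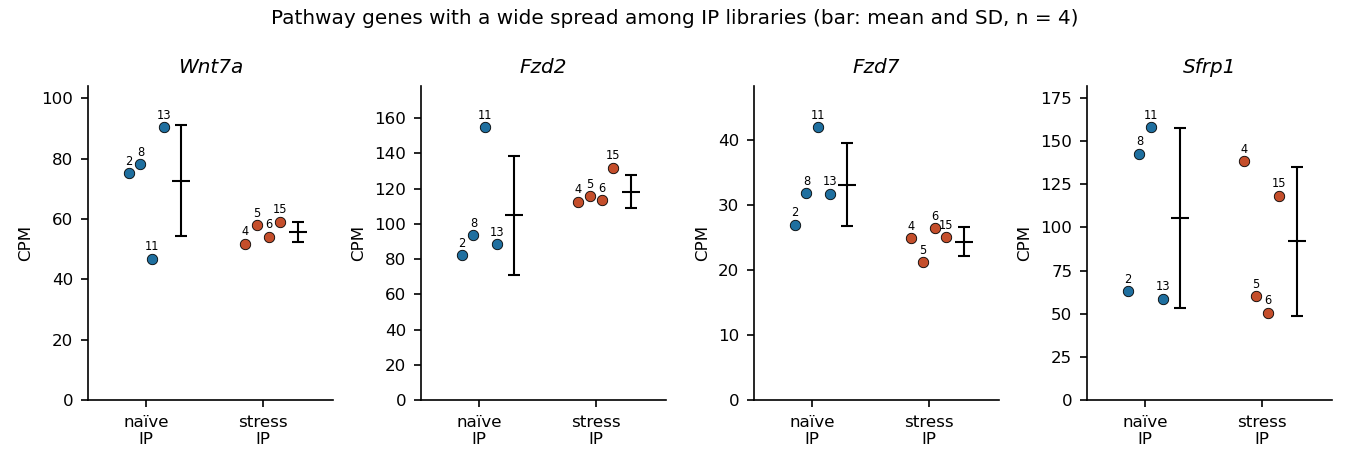
CPM of Wnt7a, Fzd2, Fzd7 and Sfrp1 in each naïve IP and stress IP library, labelled by replicate number, with the mean and SD of each group (n = 4). Sfrp1 falls into 4 libraries at 118 to 158 CPM and 4 at 50.6 to 63.2 CPM with both groups in each, and naïve IP replicate 11 is high for Fzd2 (155 CPM) and low for Wnt7a (46.8 CPM).

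Fzd1, a receptor of β-catenin signalling, was the frizzled that rose. It had 61.8, 69.7, 85.5 and 60.5 CPM in naïve IP against 107, 104, 95.7 and 93.4 CPM in stress IP. All stress libraries were above all naïve ones, and replicate 11 was the naïve library nearest to them. The mean went from 69.4 ± 11.5 to 100.03 ± 6.6 CPM (SD, n = 4), a log2 fold change of 0.54 (95% CI 0.32 to 0.76, limma adjusted p = 0.046). The call was near the threshold. It was lost in 6 of 11 alternatives (0.54 to 0.55, adjusted p from 0.051 to 0.19) and in 6 of 8 fits without a library, those without naïve IP 2, 8 or 13 or stress IP 4, 5 or 6 (0.48 to 0.56, adjusted p from 0.12 to 0.2), while without naïve IP replicate 11 it was 0.64 with an adjusted p of 0.0011. In INPUT, Fzd1 had 17.6, 17.3, 21 and 18.5 CPM in naïve and 22.4, 19.8, 25.7 and 22.0 CPM in stressed mice. Those overlapped and did not pass (0.27, 95% CI 0.06 to 0.48, limma adjusted p = 0.83), and its stress effect in IP exceeded that in INPUT by 0.27 (95% CI −0.04 to 0.57, limma adjusted p = 1.0).

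Other frizzleds gave values in both directions, none past the adjusted threshold. Fzd7 had 27.0, 31.8, 42.0 and 31.7 CPM in naïve IP against 24.9, 21.2, 26.4 and 25 CPM in stress IP, without overlap (−0.43, limma adjusted p = 0.27). Fzd10 had 15.4, 12.1, 10.7 and 13.7 CPM in naïve IP against 8.74, 10.8, 10.5 and 10.8 CPM in stress IP, which overlapped at about the level of replicate 11 (−0.34, limma adjusted p = 0.48). Fzd9 had 22.7, 24.3, 25 and 28.8 CPM in naïve IP against 21.6, 24.3, 20.1 and 20.1 CPM in stress IP, which overlapped too (−0.23, limma adjusted p = 0.56). Fzd2 had 113, 116, 113 and 132 CPM in stress IP, above 3 of the 4 naïve libraries and below replicate 11 (0.22, limma adjusted p = 0.77). The 5 remaining frizzleds lay between −0.14 (Fzd8) and 0.09 (Fzd3).

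Of the co-receptors and turnover genes, Lgr6 had 76.4, 58.1, 68.5 and 76.4 CPM in naïve IP against 56.6, 53.4, 56.0 and 43.2 CPM in stress IP. Its groups did not overlap, though the nearest libraries were close, and it did not pass (−0.42, 95% CI −0.65 to −0.18, limma adjusted p = 0.19). Its relative Lgr4 had 169, 175, 187 and 167 CPM in stress IP, within its naïve range (−0.01, 95% CI −0.17 to 0.15). Rnf43 had 1.66, 1.70, 1.80 and 1.39 CPM in naïve IP against 0.981, 0.937, 1.73 and 0.884 CPM in stress IP, so that replicate 6 lay among the naïve libraries (−0.54, limma adjusted p = 0.6). Lrp5, Lrp6 and Znrf3 gave −0.10, 0.05 and −0.06. Of the dishevelled group, Dvl3 had 42.5, 42.4, 47.2 and 53.8 CPM in stress IP, overlapping its naïve values through replicate 15 (−0.25, limma adjusted p = 0.5). Dvl1, Dvl2 and Nkd1 gave 0.02, −0.17 and −0.11. Nkd2 was under the filter of a mean of 1 CPM in IP, with 0.535, 0.592, 0.502 and 0.442 CPM in stress IP.

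In the destruction complex, Axin2 was the only gene that passed. Csnk1a1 had 130, 127, 124 and 121 CPM in naïve IP against 141, 140, 133 and 138 CPM in stress IP, narrow groups that did not overlap (0.13, 95% CI 0.02 to 0.24, limma adjusted p = 0.51). Gsk3b had 250, 283, 291 and 306 CPM in naïve IP against 264, 227, 262 and 251 CPM in stress IP, which overlapped (−0.17, limma adjusted p = 0.57). Ctnnb1 had 498, 570, 494 and 589 CPM in stress IP, on both sides of its naïve values, and its interval was narrow around 0 (0.03, 95% CI −0.12 to 0.18). Apc and Gsk3a were as close to 0, at −0.02 (95% CI −0.14 to 0.11) and −0.05 (95% CI −0.17 to 0.08). All 8 transcription factors and cofactors had log2 fold changes below 0, from −0.70 to −0.11, and none passed. Bcl9l, which links β-catenin to the Pygo proteins, had 29.4, 32.8, 31.3 and 41.3 CPM in naïve IP against 21.2, 20.4, 21.2 and 26.6 CPM in stress IP. The groups did not overlap, and it missed the threshold (−0.59, 95% CI −0.84 to −0.33, limma adjusted p = 0.059), which it passed without naïve IP replicate 11 (adjusted p = 0.047) or stress IP replicate 15 (adjusted p = 0.013) and in 3 of 11 alternatives. Tcf7 had 1.96, 2.19, 1.76 and 1.67 CPM in naïve IP against 0.714, 1.04, 1.23 and 1.69 CPM in stress IP, the latter from 16 to 42 reads, and the groups overlapped through replicate 15 (−0.70, limma adjusted p = 0.47). Ctnnbip1 had 39.2, 39.9, 41.0 and 47.1 CPM in stress IP (−0.11, limma adjusted p = 0.75). Tcf7l2 and Tcf7l1 gave −0.18 and −0.33, with limma adjusted p of 0.75 and 0.68.

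In INPUT, 0 of 43 genes passed in limma, beside 0.0442% of 13577 genes, and the count was also 0 with limma-voom. At an unadjusted p under 0.05 there were 6, beside 5.03% of all genes, with Fzd1 higher and Bcl9 (−0.30), Lef1 (−0.45), Frzb (−0.22), Fzd10 (−0.64) and Fzd8 (−0.32) lower. Lef1 and Fzd8 were the 2 genes whose groups did not overlap, beside 2.87% of all genes. Lef1, a TCF/LEF factor, had 4.97, 5.53, 5.64 and 7.32 CPM in naïve and 3.29, 4.95, 3.97 and 4.91 CPM in stress INPUT, where the nearest libraries all but touched (limma adjusted p = 0.87). The median over the 43 genes was −0.0029 and that over all genes −0.0025. Among cell type markers in IP, Sox9 fell and no other listed marker passed. The summed endothelial markers were at 16.6 ± 3.5 CPM in naïve IP against 12.6 ± 0.92 CPM in stress IP, and the neuron markers at 511 ± 55.8 and 433 ± 67.9 CPM (SD, n = 4). Their part in the values of the pathway genes was not tested.

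A wider list of 94 symbols of pathway genes, in 6 groups, gave the setting for these values, and 93 of the symbols were found in the deposited tables. In the IP stress comparison 69 were tested and 0 passed in limma or in limma-voom, with 8 at an unadjusted p under 0.05 (2 higher, 6 lower), beside 8.27% of all genes, and a median of −0.05. In INPUT 74 were tested and 0 passed in either, with 7 at an unadjusted p under 0.05, beside 5.03% of all genes. In naïve IP over INPUT 73 were tested, with 20 higher and 40 lower, beside 23.7% and 64.0% of all genes, and a median of −0.37 against −0.64. The counts by group stand beside the same shares. Of the other Wnt ligands 0 of 5 tested were higher and 4 lower, from Wnt9a (−3.11) to Wnt2 (−4.06) and Wnt10a (−3.85), and Wnt6 (0.45) did not pass. Of the secretion and R-spondin genes, Wls, the carrier of Wnts to the membrane, was higher (1.43), and Porcn, which acylates them, was at −0.81. Lgr5 (−3.18), an R-spondin receptor that unlike Lgr4 and Lgr6 was lower in IP, and the R-spondin Rspo2 (−2.46) were lowest. In naïve IP Lgr5 had a mean of 0.289 CPM and Wnt2 one of 0.178 CPM, so few reads lie behind their differences. Of the other antagonists, Sfrp5 (3.05) and Apcdd1 (0.53) were highest, and Dkkl1 (−4.51) and Trabd2b (−1.91) lowest. Of the alternative receptors Lrp4, at 899 ± 93.4 CPM in naïve IP against 60.6 ± 5.49 CPM in naïve INPUT, and Gpc4 were highest (3.89 and 2.34), and the planar polarity genes Prickle1 and Prickle2 lowest (−2.85 and −1.96). Of the cytoplasmic regulators 3 of 24 were higher and 17 lower, between Amer2 (1.72) and Invs (0.54) at one end and Dact2 (−2.87) and Dact3 (−2.58) at the other. Of the nuclear cofactors 7 of 19 were higher and 7 lower, with Ctbp2 (1.11) and Hbp1 (0.77) highest and Aes (−1.66) and Ruvbl1 (−1.12) lowest.

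Of 38 genes known as targets of β-catenin in other tissues, 25 were tested in the IP stress comparison, 1 rose and 3 fell, beside 0.44% of all genes called, with a median of −0.07. With limma-voom, 1 rose and 2 fell. These 4 were known to move in these samples when the list was made. Neither the count, its direction nor its excess over the share of all genes is therefore independent evidence. Sox9, a transcription factor that is also an astrocyte marker, fell from 319 ± 30.3 to 203 ± 21 CPM (log2 fold change −0.65, limma adjusted p = 0.0062). Ephb3, an ephrin receptor, fell from 58.2 ± 9.85 to 32.6 ± 5.13 CPM (−0.83, limma adjusted p = 0.025). Jun, a stress-responsive component of AP-1, fell from 76.8 ± 18.6 to 42.6 ± 5.04 CPM (−0.82, limma adjusted p = 0.044). Bambi, a decoy receptor of the TGF-β family, rose from 1.61 ± 0.324 to 4.36 ± 0.514 CPM (1.39, limma adjusted p = 0.0065; all SD, n = 4). The calls of Jun and Ephb3 were both lost without naïve IP 2, 8 or 13 or stress IP 4, 5 or 6 (adjusted p from 0.062 to 0.17). That of Jun was also lost in 5 of 11 alternatives (no filter, quantile normalization, limma-voom, no variance trend, Xist as a covariate; adjusted p from 0.054 to 0.18). With no variance trend Ephb3 (adjusted p = 0.13) and Sox9 (adjusted p = 0.062) lost theirs too. None of the 31 targets tested in INPUT passed in limma or in limma-voom. Sox9 was lower there too, at a mean of 13.5 CPM in stress INPUT against 19.8 CPM in naïve INPUT. That log2 fold change of −0.55 was close to the one in IP. The stress effect in IP differed from that in INPUT by −0.10 for Sox9. It differed by −0.78 for Jun, −0.70 for Ephb3 and 0.82 for Bambi, and none of these 4 differences passed. At an unadjusted limma p under 0.05 there were 7 targets in INPUT (6 higher, 1 lower), beside 5.03% of all genes. For the stress effect in IP there were 9 of 25 (4 higher, 5 lower), beside 8.27% of all genes. These include Sox9, Ephb3, Jun and Bambi, so this excess is not independent evidence either. In naïve IP over INPUT, 12 of 29 were higher and 12 lower, beside 23.7% and 64.0% of all genes, from Sox9 (4.01) and Gja1 (3.61) to Fgf9 (−3.80) and Fst (−3.92). The other 21 of the 25 tested for the stress effect in IP did not pass.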

How the data were processed

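RNA was sequenced from 16 libraries, 4 of each kind (IP or INPUT, from naïve or stressed mice). The authors aligned reads and counted them on genes, with STAR, HTSeq, edgeR, limma and build mm10 named in the submitters' processing notes, and deposited log2 CPM per gene and library, scaled to each library's total. The shared constant behind the log2 values was taken off to give CPM and whole reads. A strand setting was not given in the sources used here, and 7 of the 45 genes share exon sequence with another gene of the tables in GENCODE M21. The test was limma (version 3.58.1, R 4.3.3), with lmFit and with eBayes using a variance trend, on log2(CPM + 0.1), a scale that understates changes of low genes. A gene entered a comparison if its mean over the 8 or 16 libraries used exceeded 1 CPM. Tests were two-sided, with Benjamini-Hochberg adjustment over all genes tested and a threshold of 0.05. The difference between the stress effects was an interaction term. The p-values measure the spread between these libraries. The fit was also run on simulated reads with known changes. These had the same relative spread for all genes and no deviant library, unlike the real data, so they do not bear on calls near the threshold. Plots were made with matplotlib 3.10.9 and summaries with pandas 2.3.3 and NumPy 2.4.6 in Python 3.11.15.

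Between 16392876 and 25814364 reads per library fell on genes, where a floor of 3 reads speaks for counting error alone. The genes, lists and tests were chosen with earlier results of these data known. Values in every library are given for Axin2 and Axin1, genes past the adjusted threshold for stress or with an unadjusted p under 0.05 in IP, the 3 highest and 3 lowest IP over INPUT differences in naïve mice, and the highest gene per kb of each role. Of the wider lists, those past the threshold for stress and the 2 highest and 2 lowest IP over INPUT differences per list are named. Names outside this rule, such as Wnt7a, Sfrp1 and Lef1, were chosen after their values were seen. Alternatives changed the pseudocount (1 or 0.01 CPM), the filter (none, or a mean over 5 CPM), the scaling (median ratio or quantile), the model (limma-voom on whole reads, array weights, no variance trend, a joint fit of all 16 libraries, a covariate for Xist) or left out 1 library at a time.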

Additional observations from a re-analysis of the deposited data

Results flagged for a closer look

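Among 176 groups of 4 libraries, 44 genes in 4 groups, 8 held a library far from the other 3 by Dixon's test at the 95% level, and chance gives about 8.8 (about 1 in 20 groups). Fzd2 gave 3 of them: 155 CPM in naïve IP replicate 11 (others 82.1 to 93.7), 132 CPM in stress IP replicate 15 (others 113 to 116) and 14.9 CPM in naïve INPUT replicate 14 (others 9.09 to 9.54). Lrp6 had 143 CPM in naïve IP replicate 11 (others 137 to 138). Rnf43 had 1.73 CPM in stress IP replicate 6 (others 0.884 to 0.981), and Bcl9l 26.6 CPM in stress IP replicate 15 (others 20.4 to 21.2). In stress INPUT, Nkd1 had 12.9 CPM in replicate 12 (others 7.93 to 8.63) and Bcl9 25.4 CPM in replicate 10 (others 19.9 to 20.5).

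The stress effect on Axin2 differed between IP and INPUT by −0.70 on the log2 scale (limma adjusted p = 0.019, interaction term). It was lower in 4 of 4 stress IP libraries than in any naïve IP library.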

How the results depend on the processing

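The fall of Axin2 in stress IP passed in all 11 alternatives and with each library left out, and its INPUT value never did. No paired analysis was possible because the sources do not say which IP and INPUT libraries came from the same mouse. The 2 genes past the threshold for stress in IP became 1 with no filter, either rescaling, limma-voom or no variance trend, and 1 to 5 with a library left out. All 12501 genes gave 55 calls there, 19 to 143 in the alternatives and 17 to 122 with a library left out. The interaction call of Axin2 went from 1 to 0 with no variance trend (−0.70, limma adjusted p = 0.086), and with a library left out the count was 0 to 1 and the value −0.76 to −0.65. The count lower in IP than in INPUT went from 13 to 7 (median ratio) and 8 (quantile) in naïve mice, and from 15 to 8 and 8 in stressed mice.

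In naïve mice the difference between IP and INPUT changed sign under the median ratio and quantile rescalings for Rnf43 (0.12, 0.66), Gsk3b (0.36, 0.046), Axin1 (0.36, 0.31), Dvl2 (0.46, 0.51) and Notum (0.44, 1.08). In stressed mice it did so for Axin2 (0.47, 0.42), Notum, Dvl2, Axin1 and Ctnnbip1 under both, for Gsk3b under the median ratio, and for Rnf43 and Tcf7 under quantile normalization. Both set the median of all genes near 0, which lay at −0.64 by library totals. Depth limits the IP values of Nkd2, Rnf43, Tcf7, Notum, Frzb and Wif1, with no more than 49 reads in any IP library.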
